A study of Mus musculus with 12 samples.

Results

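The comparison described here is that of the hippocampus of mice on a high-fat diet (HFD) with the hippocampus of mice on chow. It rests on 6 of the 12 small RNA libraries of the series, chosen by the tissue and diet in their labels, with 3 HFD libraries and 3 chow libraries. The study measured small RNA in extracellular vesicles of adipose tissue and in hippocampus, and the question put to these 6 libraries was which microRNAs (miRNAs) of the brain differ with the diet. HFD libraries came from male wild-type C57BL/6J mice that ate a high-fat diet for 12 weeks, and chow libraries from male wild-type C57BL/6J mice that ate chow for 12 weeks. The count table heads its control columns LFD, and these were taken as the chow libraries because chow is the only other diet in the labels. The sample titles name the hippocampus, while the tissue field says only brain. RNA of both groups was taken up in Trizol, and Novogene built and sequenced the libraries. Whether libraries of a group stem from different mice is not labelled. The p-values below then measure only how far these samples spread, which may be technical. The sources used here do not give the age of the mice or what the diets were made of.

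A miRNA is a short RNA cut from a hairpin transcript, whose left and right strands give the 5p and 3p arms. An arm that is loaded into an Argonaute protein pairs with messenger RNAs, mainly through its bases 2 to 8 (the seed), and lowers their stability and translation. In the hippocampus, miRNAs are known for roles in neuronal identity, in synaptic plasticity, and in the differentiation of glia. Many are strongly enriched in a single cell type, so that RNA from vessels, blood or a neighbouring tissue can be recognised by its miRNAs. In bulk tissue such as this, fewer cells of a type and less miRNA per cell cannot be told apart.

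Mature sequences of the miRNAs on which the results turn are shown 5′ to 3′, from RefSeq on GRCm38.p6, with the seed in capitals. Of the 552 miRNAs tested, 470 matched a RefSeq sequence by name, as did 50 of the 65 that were called. The following set holds 6 miRNAs that rose in HFD hippocampus; 5 of them (all but miR-22-3p) are each followed by a relative with the same seed that was not called, so that the differing bases can be seen.
miR-22-3p: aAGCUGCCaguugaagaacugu
miR-99a-5p: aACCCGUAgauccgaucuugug
miR-100-5p: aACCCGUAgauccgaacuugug
miR-125b-5p: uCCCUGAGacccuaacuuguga
miR-125a-5p: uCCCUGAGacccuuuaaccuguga
miR-107-3p: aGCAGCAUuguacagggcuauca
miR-103-3p: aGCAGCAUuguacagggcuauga
miR-221-3p: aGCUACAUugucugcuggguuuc
miR-222-3p: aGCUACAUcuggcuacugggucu
miR-501-3p: aAUGCACCcgggcaaggauuug
miR-500-3p: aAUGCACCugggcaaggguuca

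The next set holds miRNAs that fell, among them miR-30e-3p and miR-30a-3p, which share a seed and both fell, and after miR-148a-3p, miR-132-3p and miR-146a-5p a relative of the same seed that was not called. The sequences of miR-129-5p and miR-129b-3p are shown because they come from opposite strands of the same position and held almost the same counts, and those of miR-3470b and miR-690 because they occur in the transcripts of many genes.
miR-148a-3p: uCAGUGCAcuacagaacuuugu
miR-148b-3p: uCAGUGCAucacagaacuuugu
miR-132-3p: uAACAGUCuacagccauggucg
miR-212-3p: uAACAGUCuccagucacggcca
miR-146a-5p: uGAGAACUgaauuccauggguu
miR-146b-5p: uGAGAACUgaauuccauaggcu
miR-129-5p: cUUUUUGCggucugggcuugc
miR-129b-3p: cAAGCCCAgaccgcaaaaagauu
miR-129-2-3p: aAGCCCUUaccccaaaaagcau
miR-30e-3p: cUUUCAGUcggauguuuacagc
miR-30a-3p: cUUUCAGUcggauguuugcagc
miR-3470b: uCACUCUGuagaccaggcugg
miR-690: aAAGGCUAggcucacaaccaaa

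The libraries differed in depth along with the diet. HFD libraries 1 to 3 held 12874600, 11143775 and 12384458 counts, whereas chow libraries 1 to 3 held 4094591, 5723918 and 2331091 counts. Entries with at least 1 count numbered 910 to 931 in HFD libraries and 683 to 880 in chow libraries, and 3 counts in a library, taken as its floor, corresponded to 0.216 to 0.247 CPM in HFD libraries and 0.525 to 1.70 CPM in chow libraries. The first principal component (50.4% of the variance) separated the diets, and the second (28.4%) set chow library 3, the shallowest, against chow library 1. Depth and diet cannot be told apart by comparing these libraries as deposited. With every library thinned at random to the total of the shallowest, 60 of 443 miRNAs were called, 22 higher and 38 lower in HFD, and 56 of them were among the calls at full depth.

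Levels below are CPM (counts scaled to a common library total) after TMM scaling, a fold change is the fitted log2 ratio of HFD over chow, and a miRNA is said to have risen or fallen where edgeR's quasi-likelihood F test gave an adjusted p under 0.05. Of 552 miRNAs tested, 65 were called (11.8%), with 24 higher in HFD hippocampus (4.35%) and 41 lower (7.43%). The median log2 fold change of all 552 was -0.13. Scaling by library totals moved that median to 0.032 and called 33, with 17 higher and 16 lower, and without the filter on low counts 80 were called, with 38 higher and 42 lower. Of the 65, 31 remained called with library totals, 53 without the filter and 60 with RLE scaling. In 206 of the 552 (37.3%), the 3 HFD libraries lay wholly above or wholly below the 3 chow libraries, and all 65 called miRNAs were among them. The sign of every called miRNA was the same in each of 16 other analyses that tested it, but the calls themselves changed with the library left out. A fit without 1 library also rests on fewer libraries, and the part of this in the lost calls was not tested. Without HFD library 1 there were 8 calls and without HFD library 3 there were 9, against 38 without HFD library 2. Leaving out chow library 1 gave 33 calls, chow library 2 gave 23 and chow library 3 gave 123. The 7 miRNAs called in all 16 analyses were miR-22-3p and miR-7079-3p, which rose, and miR-129-1-3p, miR-129-2-3p, miR-3470a, miR-6481 and miR-467e-5p, which fell. Of these, miR-7079-3p, miR-6481 and miR-467e-5p had next to no counts in 1 diet. They passed the filter on low counts only through the other diet, so their staying called adds little.

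**Figure D1:**
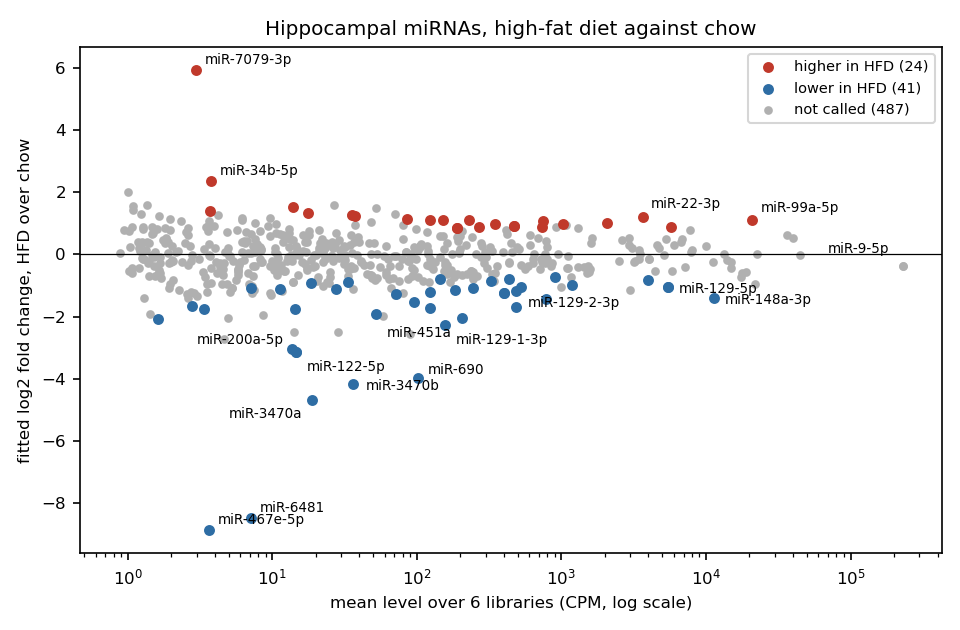
Fitted log2 fold change of HFD over chow (vertical axis) against the mean level over 6 libraries in CPM (horizontal axis, log scale) for the 552 miRNAs tested. The 24 that rose are red, the 41 that fell are blue and the 487 not called are grey; the fitted values of miR-467e-5p, miR-6481 and miR-7079-3p rest on counts at or near 0 in one diet and depend on how the fit treats zeros.

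The most abundant miRNAs of the tissue were not called. miR-9-5p, which marks the neural lineage, took 21.3% of counts in HFD libraries and 23.5% in chow libraries (averages over 3 libraries). The entry miR-9b-3p, from the opposite strand, held nearly the same counts (10445050 over the 6 libraries, against 10464840 for miR-9-5p), and with such reads kept once the share of miR-9-5p was 27.5% in HFD libraries and 31.7% in chow libraries. miR-9-5p had 221242, 192219 and 189628 CPM in HFD libraries 1 to 3, against 186739, 211811 and 379330.0 CPM in chow libraries 1 to 3 (log2 fold change -0.37, SE 0.31, adjusted p = 0.432). Chow library 3 stood above the other 5, and without it the log2 fold change was 0.071. After these entries came miR-26a-5p, with 46868 ± 8818 CPM in HFD libraries and 32581 ± 4735 CPM in chow libraries (SD, n = 3 each; 0.52, adjusted p = 0.164), and miR-128-3p, a miRNA of mature neurons, with 44145 ± 11748 CPM in HFD libraries and 28756 ± 4837 CPM in chow libraries (SD, n = 3 each; 0.62, adjusted p = 0.156). miR-218-5p, which is enriched in neurons, had 43937 ± 7362 CPM in HFD libraries and 44833 ± 13099.8 CPM in chow libraries (SD, n = 3 each; -0.029, adjusted p = 0.957). miR-127-3p, from the imprinted Dlk1-Dio3 region, had 22624 ± 3721 CPM in HFD libraries and 22228 ± 6655 CPM in chow libraries (SD, n = 3 each; 0.025, adjusted p = 0.96). The called miRNAs were above the middle of the abundance range, with a median of 189 CPM for those that rose and 146 CPM for those that fell, against 28.7 CPM for all 552.

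Of the abundant miRNAs that rose, miR-22-3p changed with the least spread. It is a broadly expressed miRNA made from its own noncoding transcript, with its hairpin at chr11:75463716-75463810, + strand, in an exon of Mir22hg (GRCm38.p6). Its levels were 5103, 4660.4 and 5523 CPM in HFD libraries 1 to 3, against 2273, 2105 and 2214 CPM in chow libraries 1 to 3. Every HFD library stood far above every chow library, and the spread within a diet was small beside the difference (log2 fold change 1.21, SE 0.17, adjusted p = 0.00589). miR-99a-5p, whose family is known to repress the kinase mTOR, was the most abundant miRNA to rise. It had 34108, 23783 and 27586 CPM in HFD libraries 1 to 3, against 12477, 16712 and 10402 CPM in chow libraries 1 to 3 (log2 fold change 1.11, SE 0.25, adjusted p = 0.0281). The HFD libraries did not overlap the chow libraries, although HFD library 2 and chow library 2 stood closest. Its hairpin lies at chr16:77598936-77599000, + strand, in an intron of the noncoding Mir99ahg.

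miR-125b-5p, a brain-rich miRNA known for promoting neuronal differentiation, had 9096, 6202 and 7021 CPM in HFD libraries 1 to 3, against 3573, 4339.7 and 4096 CPM in chow libraries 1 to 3 (log2 fold change 0.89, SE 0.20, adjusted p = 0.0292). miR-191-5p, a housekeeping-like miRNA, had 2948, 2479 and 2957 CPM in HFD libraries 1 to 3, against 1096, 1317 and 1703 CPM in chow libraries 1 to 3 (log2 fold change 1.03, SE 0.21, adjusted p = 0.0242). In both, all HFD libraries lay above all chow libraries. miR-221-3p, which represses the cell cycle inhibitor p27Kip1 and is known from vessel cells and tumours, had 1628, 1156 and 1314 CPM in HFD libraries 1 to 3, against 520.5, 784 and 778 CPM in chow libraries 1 to 3 (log2 fold change 0.98, SE 0.23, adjusted p = 0.0307). miR-328-3p had 1218, 745 and 1072 CPM in HFD libraries 1 to 3, against 465, 457 and 527 CPM in chow libraries 1 to 3 (log2 fold change 1.07, SE 0.22, adjusted p = 0.0242). The lowest HFD library of either, library 2, stayed above the highest chow library. miR-872-5p, from an intron of Ift74, averaged 944 ± 50.2 CPM in HFD libraries and 517 ± 71.5 CPM in chow libraries (SD, n = 3 each; log2 fold change 0.87, SE 0.18, adjusted p = 0.0242). Of these 7 abundant miRNAs, miR-22-3p was the only one still called without HFD library 1 or without HFD library 3; for the other 6 the adjusted p was 0.0694 to 0.125 without HFD library 1 and 0.0785 to 0.108 without HFD library 3. Without chow library 1, 5 were lost (0.0537 to 0.0665), and without chow library 2, 4 were lost (0.0642 to 0.0689). Scaling by library totals ended the call of miR-872-5p (0.0545).

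Less abundant miRNAs that rose included miR-107-3p, from an intron of the pantothenate kinase gene Pank1, which together with miR-103 is known to lower insulin sensitivity in mice. Its levels were 366, 353 and 332 CPM in HFD libraries 1 to 3, against 199, 166 and 210.2 CPM in chow libraries 1 to 3 (log2 fold change 0.87, SE 0.19, adjusted p = 0.0262), with a gap between the diets that was wider than the range within either. miR-181c-5p, a member of a family that is rich in brain, had 107, 119.7 and 123 CPM in HFD libraries 1 to 3, against 69.5, 39.5 and 49.99 CPM in chow libraries 1 to 3 (log2 fold change 1.14, SE 0.26, adjusted p = 0.0292). miR-140-5p, best known from cartilage, had 210.0, 207 and 209.8 CPM in HFD libraries 1 to 3, against 71.3, 76.6 and 143 CPM in chow libraries 1 to 3 (log2 fold change 1.11, SE 0.30, adjusted p = 0.0489). The 3 HFD libraries of miR-140-5p were nearly equal, and chow library 3 stood above the other chow libraries. miR-339-5p had 51.95, 51.5 and 54.2 CPM in HFD libraries 1 to 3, against 25.3, 22.6 and 19.3 CPM in chow libraries 1 to 3 (log2 fold change 1.22, SE 0.21, adjusted p = 0.0179). miR-501-3p, from an intron of Clcn5, averaged 50.4 ± 7.27 CPM in HFD libraries and 21.03 ± 3.95 CPM in chow libraries (SD, n = 3 each; log2 fold change 1.27, SE 0.24, adjusted p = 0.0203), and miR-28a-5p averaged 25.6 ± 1.73 CPM in HFD libraries and 9.77 ± 5.17 CPM in chow libraries (SD, n = 3 each; log2 fold change 1.32, SE 0.36, adjusted p = 0.0489). All 6 lost their call without HFD library 1 (adjusted p 0.0606 to 0.132) and without HFD library 3 (0.0739 to 0.153). Without HFD library 2, chow library 1 or chow library 2, the calls lost numbered 2 (0.0710 to 0.0990), 2 (0.0886 to 0.113) and 4 (0.0628 to 0.119). Library totals ended those of miR-181c-5p and miR-28a-5p (0.0545 to 0.0683), and keeping same reads once ended those of miR-140-5p and miR-28a-5p (0.0504 to 0.0526).

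**Figure D2:**
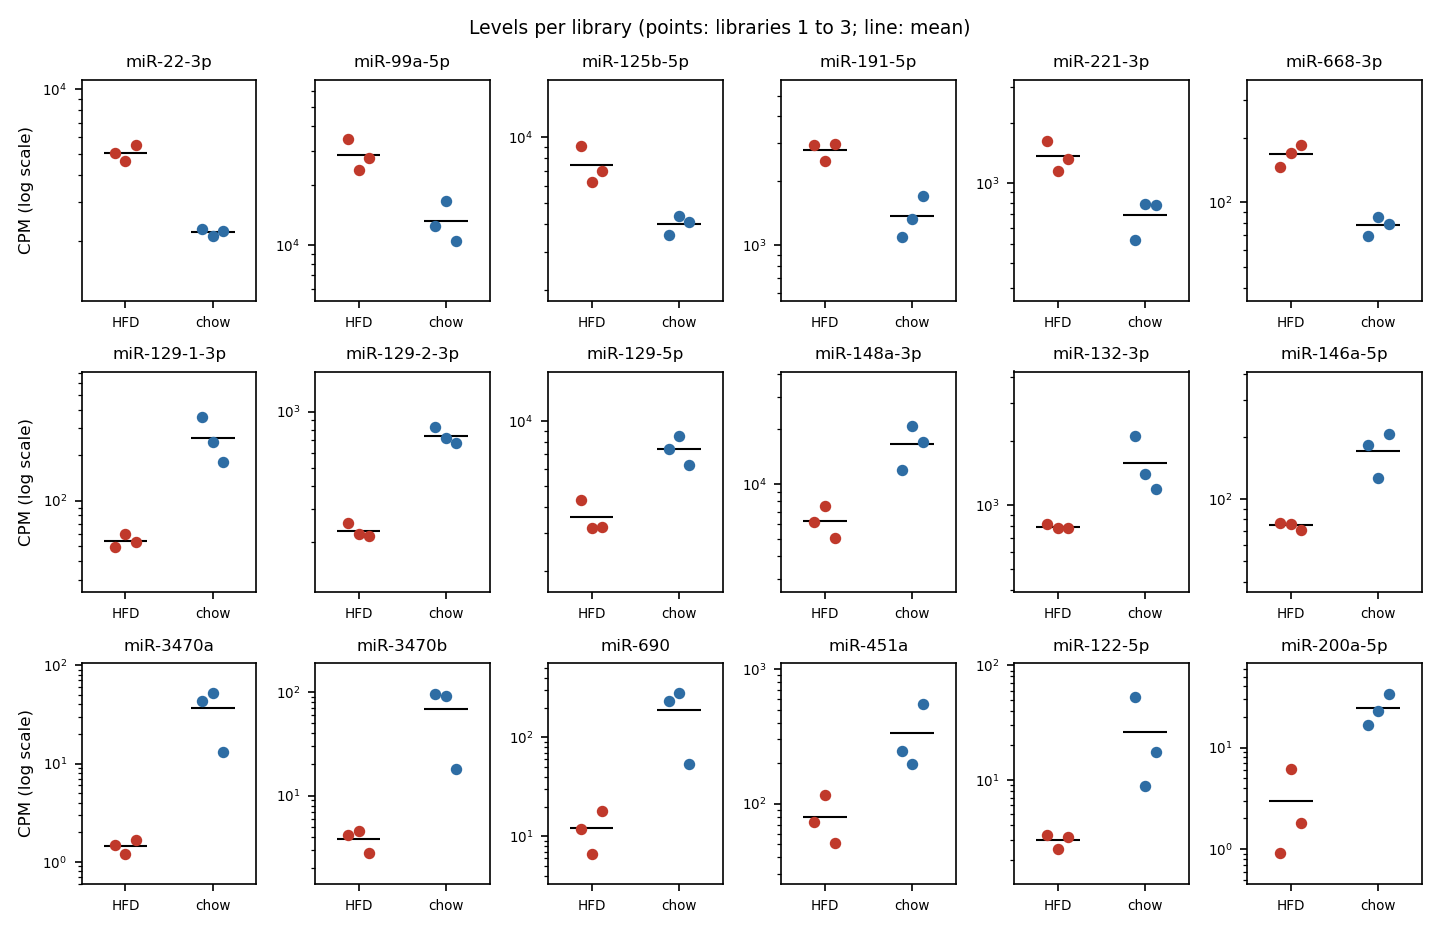
Level in CPM (log scale, a scale of its own per panel) of 18 miRNAs in each library, with HFD on the left and chow on the right; points are libraries 1 to 3 and the line is their mean. In each panel the 3 HFD libraries lie wholly above or wholly below the 3 chow libraries, and the chow libraries of miR-122-5p, miR-690, miR-451a and both miR-3470 entries are the most scattered.

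Among the miRNAs that fell were all tested arms of the miR-129 hairpins. miR-129 is enriched in neurons and is known in rodents to repress the potassium channel Kv1.1 in dendrites. Mouse has a pair of hairpins that give the same 5p arm, Mir129-1 on chromosome 6 and Mir129-2 on chromosome 2, and a 3p arm of their own each. miR-129-1-3p had 49.5, 60.1 and 53.3 CPM in HFD libraries 1 to 3, against 357, 246 and 180.1 CPM in chow libraries 1 to 3 (log2 fold change -2.27, SE 0.29, adjusted p = 0.00466). miR-129-2-3p had 250.4, 219.5 and 213 CPM in HFD libraries 1 to 3, against 821, 719.9 and 677 CPM in chow libraries 1 to 3 (log2 fold change -1.70, SE 0.18, adjusted p = 0.00322). For both 3p arms the highest HFD library was far below the lowest chow library, and both stayed called whichever single library was left out. The shared arm, miR-129-5p, had 4309.9, 3188 and 3204 CPM in HFD libraries 1 to 3, against 7425, 8519 and 6253 CPM in chow libraries 1 to 3 (log2 fold change -1.05, SE 0.21, adjusted p = 0.0235), also with no overlap between the diets.

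The entries miR-129b-5p and miR-129b-3p were also called. Mir129b lies at chr2:94241378-94241442, + strand, on the strand opposite to Mir129-2 (chr2:94241364-94241453, - strand), and its arms are close to the reverse complements of those of Mir129-2. miR-129b-3p held 229791 counts over the 6 libraries, against 230369 for miR-129-5p, and is in effect the same measurement. miR-129b-5p, which overlaps miR-129-2-3p, did not share its counts and had 73.4, 51.4 and 47.9 CPM in HFD libraries 1 to 3, against 264, 201 and 106 CPM in chow libraries 1 to 3 (log2 fold change -1.73, SE 0.36, adjusted p = 0.0242). The calls of miR-129-5p and both miR-129b arms were lost without HFD library 1 (adjusted p 0.0606 to 0.0671), HFD library 2 (0.0759 to 0.117), HFD library 3 (0.122 to 0.173), chow library 1 (0.0543 to 0.0587) and chow library 2 (0.0689 to 0.0695). Library totals ended the call that miR-129-5p and miR-129b-3p share (0.0545).

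Another 6 miRNAs that fell include miR-488-3p and miR-128-1-5p, from the list of arms enriched in neurons or brain, and miR-132-3p, from the list of miRNAs regulated by neuronal activity. miR-132-3p, which is induced by CREB and neuronal activity and shapes dendrites and spines, had 816, 777 and 782 CPM in HFD libraries 1 to 3, against 2116, 1394 and 1191 CPM in chow libraries 1 to 3 (log2 fold change -0.99, SE 0.23, adjusted p = 0.0326). All HFD libraries were close together and below all chow libraries, among which library 1 was highest. miR-488-3p, from an intron of the neuronal gene Astn1, had 323, 339 and 292 CPM in HFD libraries 1 to 3, against 512, 522 and 599 CPM in chow libraries 1 to 3 (log2 fold change -0.78, SE 0.18, adjusted p = 0.0285). miR-139-5p, from an intron of the phosphodiesterase gene Pde2a, had 3553, 2397 and 2689.8 CPM in HFD libraries 1 to 3, against 4831, 5439.6 and 5091 CPM in chow libraries 1 to 3 (log2 fold change -0.83, SE 0.20, adjusted p = 0.0326). In both, the HFD libraries stayed below the lowest chow library. miR-598-3p had nearly the same level in each HFD library, at 681, 682 and 678 CPM in HFD libraries 1 to 3, against 1195, 1165 and 1046 CPM in chow libraries 1 to 3 (log2 fold change -0.74, SE 0.16, adjusted p = 0.0262). miR-135b-5p averaged 49.1 ± 17.7 CPM in HFD libraries and 143 ± 33.7 CPM in chow libraries (SD, n = 3 each; log2 fold change -1.54, SE 0.33, adjusted p = 0.0262). miR-128-1-5p, the rare arm of a hairpin in an intron of R3hdm1, averaged 17.6 ± 0.936 CPM in HFD libraries and 37.6 ± 13.03 CPM in chow libraries (SD, n = 3 each; log2 fold change -1.10, SE 0.28, adjusted p = 0.0374). All 6 of these calls were lost without HFD library 1 (adjusted p 0.0671 to 0.125), HFD library 3 (0.129 to 0.253) or chow library 2 (0.0548 to 0.111), and 5 were lost without HFD library 2 (0.126 to 0.198) or chow library 1 (0.0562 to 0.0620). Scaling by library totals ended all 6 (0.0567 to 0.189).

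As a list, 26 miRNA arms enriched in neurons or in brain were in the table and 25 were tested. None rose by edgeR (2 at an unadjusted p under 0.05, 1 called by DESeq2 and 0 by limma-voom) and 5 of the 25 fell, against 7.43% of all 552. These were miR-129-5p, both 3p arms of miR-129, miR-488-3p and miR-128-1-5p, so that 3 of the 5 are arms of miR-129. With library totals 2 of the 25 were lower, the 3p arms of miR-129. The list's median log2 fold change was -0.37, against -0.13 for all 552, and its summed level overlapped between the diets, at 280302 to 347454 CPM in HFD libraries and 279255 to 458263 CPM in chow libraries. miR-124-3p, the classic miRNA of postmitotic neurons, had 6208, 4627 and 4527 CPM in HFD libraries 1 to 3, against 6588, 4023 and 1735 CPM in chow libraries 1 to 3 (log2 fold change 0.31, SE 0.42, adjusted p = 0.629), with overlap. Neural miRNAs were thus abundant in every library, as labelled. Of 6 miRNAs regulated by neuronal activity, edgeR called miR-132-3p alone (16.7%, against 11.8% of all 552). DESeq2 called 1 higher and 1 lower, and with library totals 0 were called.

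The most abundant miRNA to fall was miR-148a-3p, which is known in mouse liver to repress the LDL receptor and is plentiful in fat and epithelia. It had 6176, 7559.5 and 5054 CPM in HFD libraries 1 to 3, against 11969.8, 20706 and 16924 CPM in chow libraries 1 to 3 (log2 fold change -1.40, SE 0.26, adjusted p = 0.02). The highest HFD library stayed well below the lowest chow library. Its hairpin is intergenic, at chr6:51269812-51269910, - strand. miR-146a-5p, which NF-kappaB induces and which in turn represses the signalling proteins Irak1 and Traf6, had 76.9, 76.0 and 70.9 CPM in HFD libraries 1 to 3, against 182, 126 and 206 CPM in chow libraries 1 to 3 (log2 fold change -1.20, SE 0.24, adjusted p = 0.0242). The HFD libraries varied little and lay below every chow library. miR-335-3p, from an intron of the imprinted gene Mest, averaged 159.6 ± 34.9 CPM in HFD libraries and 334 ± 72.6 CPM in chow libraries (SD, n = 3 each; log2 fold change -1.06, SE 0.25, adjusted p = 0.0325), and miR-193b-3p averaged 6.58 ± 1.34 CPM in HFD libraries and 22.3 ± 9.98 CPM in chow libraries (SD, n = 3 each; log2 fold change -1.76, SE 0.37, adjusted p = 0.0242). These 4 calls were lost without HFD library 1 (adjusted p 0.0693 to 0.0940) or HFD library 3 (0.108 to 0.201), 3 of them without HFD library 2 (0.0715 to 0.117) or chow library 1 (0.0537 to 0.0764), and 2 without chow library 2 (0.0536 to 0.0689). Library totals ended the calls of miR-146a-5p and miR-335-3p (0.0600 to 0.0886).

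Relatives with the same seed often differed in whether they were called. miR-99a-5p and miR-100-5p differ by U16A (counted from 1 at the 5′ end of miR-99a-5p), yet miR-100-5p had 10323 ± 1541 CPM in HFD libraries and 12102 ± 104 CPM in chow libraries (SD, n = 3 each; -0.23, adjusted p = 0.421), on the other side of 0. miR-107-3p and miR-103-3p differ by C22G, and miR-103-3p had 3263 ± 143 CPM in HFD libraries and 3622 ± 1053 CPM in chow libraries (SD, n = 3 each; -0.15, adjusted p = 0.668). miR-148a-3p differs from miR-148b-3p by C9U and U10C, and miR-148b-3p had 692 ± 115 CPM in HFD libraries and 826 ± 104 CPM in chow libraries (SD, n = 3 each; -0.25, adjusted p = 0.407). miR-146a-5p differs from miR-146b-5p by G18A and U21C, and miR-146b-5p had 1135 ± 103 CPM in HFD libraries and 1487 ± 614 CPM in chow libraries (SD, n = 3 each; -0.39, adjusted p = 0.383). The sources used here do not say how reads matching more than 1 of these were counted, so the split between such near-identical miRNAs is uncertain. Whether the members of a pair differ from each other in their response was not tested.

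More distant relatives gave a like picture. miR-222-3p, which shares a cluster as well as a seed with miR-221-3p, had a log2 fold change of 0.25, adjusted p = 0.564. The fold change of miR-125a-5p was nearly that of miR-125b-5p but more variable (0.89, adjusted p = 0.103), with chow library 3 at 939 CPM, above the 924 CPM of HFD library 2. Among the miR-181 family, miR-181c-5p was called, while miR-181a-5p (0.50, adjusted p = 0.122), miR-181b-5p (0.35, adjusted p = 0.32) and miR-181d-5p (-0.29, adjusted p = 0.3) were not. miR-500-3p, from the same X-linked gene as miR-501-3p, had -0.55, adjusted p = 0.193. miR-212-3p, from the same cluster as miR-132-3p, had -0.71, adjusted p = 0.164. In the list of miR-99, miR-100 and miR-125, 2 of 5 tested rose (40.0%, against 4.35% of all 552). The median of that list was 0.89, whereas the medians of let-7 (9 tested) and miR-29 (3 tested) were 0.029 and 0.098. In these families edgeR called 0 (3 of let-7 and 0 of miR-29 at an unadjusted p under 0.05), DESeq2 called 2 of let-7 and 0 of miR-29, and limma-voom called 0 of either.

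The 5p arms of miR-30, of which edgeR called 0 of 5 (1 at an unadjusted p under 0.05, and the same number called by DESeq2 and by limma-voom), had a median of -0.23 that became 0.013 when libraries were scaled by their totals. The most abundant of them, miR-30a-5p, had 16457, 14906 and 13536 CPM in HFD libraries 1 to 3, against 28240.0, 20276 and 38455 CPM in chow libraries 1 to 3 (-0.95, adjusted p = 0.0505), just short of the threshold. Of the 3p arms of that family 3 fell, together with the entry miR-30f (7.43% of all 552 were lower). The 3p arms miR-30d-3p (-0.68), miR-30c-2-3p (-0.49) and miR-30c-1-3p (-0.32) were tested and not called. Whether the 5p and 3p arms differ in their response was not tested, and the ratio of miR-30a-3p to miR-30a-5p overlapped between the diets. miR-30e-3p had 371, 350.0 and 312 CPM in HFD libraries 1 to 3, against 607, 785 and 739 CPM in chow libraries 1 to 3 (log2 fold change -1.04, SE 0.18, adjusted p = 0.0185). Its HFD libraries lay below every chow library. miR-30a-3p, which differs from it by A18G, averaged 231 ± 34.97 CPM in HFD libraries and 416 ± 80.2 CPM in chow libraries (SD, n = 3 each; log2 fold change -0.85, SE 0.22, adjusted p = 0.0445), and miR-30b-3p averaged 12.7 ± 1.5003 CPM in HFD libraries and 24.2 ± 3.27 CPM in chow libraries (SD, n = 3 each; log2 fold change -0.92, SE 0.22, adjusted p = 0.0326). The sequence of miR-30f overlaps miR-30e-3p by 19 bases on the opposite strand, so the entries may share reads; it averaged 114 ± 14.7 CPM in HFD libraries and 252 ± 74.6 CPM in chow libraries (SD, n = 3 each; log2 fold change -1.15, SE 0.27, adjusted p = 0.0305). These 4 calls were lost without HFD library 1 (adjusted p 0.0735 to 0.0991), HFD library 2 (0.0721 to 0.197), HFD library 3 (0.145 to 0.277) or chow library 2 (0.0642 to 0.114), and 3 were lost without chow library 1 (0.0537 to 0.100). Library totals ended all 4 (0.0545 to 0.171).

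Arms of the same hairpin come from the same transcript, and their ratio within a library does not depend on depth or scaling. Both arms were tested for 188 arm pairs, and in 182 of them the ratio of the rarer arm to the other could be formed in every library. Pairs of repeat entries, such as those of miR-338 and miR-3065, were counted under each name. The ratios did not overlap between the diets in 65 of the 182 (35.7%), with the rarer arm relatively lower in HFD in 37 and relatively higher in 28. Over the 182 pairs the median log2 ratio was 0.083 lower in HFD than in chow. Of the 187 rarer arms tested, 4 rose (2.14%) and 13 fell (6.95%), and of the 296 other arms 19 rose (6.42%) and 19 fell (6.42%), against 4.35% higher and 7.43% lower over all 552; the difference between the arms was not tested. Both arms were called together in 3 pairs, all of them of miR-129 hairpins, and edgeR called opposite directions in 0 pairs (6 at an unadjusted p under 0.05; 2 by DESeq2 and 0 by limma-voom after adjustment). In 35 pairs 1 arm alone was called, the rarer arm in 14 and the more abundant arm in 21.

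The ratios of several hairpins stood far apart. Since a called arm is part of its ratio, these values describe the calls and are given with no test. The ratio of miR-200a-5p to miR-200a-3p was 0.0242, 0.0409 and 0.0417 in HFD libraries, against 0.146, 0.197 and 0.227 in chow libraries, a mean log2 difference of -2.44. miR-200a-3p itself was not called (-0.72, adjusted p = 0.383). The ratio of miR-27a-5p to miR-27a-3p was 0.0131, 0.0141 and 0.0141 in HFD libraries, against 0.0323, 0.0536 and 0.0925 in chow libraries; there the fold changes of the arms had opposite signs, at -1.10 for the 5p arm, which fell, and 0.77, adjusted p = 0.191 for the 3p arm. In miR-221, the ratio of the 5p to the 3p arm was 0.117, 0.146 and 0.137 in HFD libraries, against 0.225, 0.261 and 0.792 in chow libraries, and the 5p arm had a log2 fold change of -0.80, adjusted p = 0.351, which became 0.20 without chow library 3.

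In the other direction, the ratio of miR-140-5p to miR-140-3p was 0.133, 0.164 and 0.189 in HFD libraries, against 0.0394, 0.0472 and 0.0712 in chow libraries, a mean log2 difference of 1.65, and miR-140-3p had a log2 fold change of -0.46, adjusted p = 0.163. The ratio of miR-148a-5p to miR-148a-3p was 0.00271, 0.00237 and 0.00305 in HFD libraries, against 0.00136, 0.000642 and 0.00104 in chow libraries. Thus the fall of miR-148a-3p was not accompanied by a call of its 5p arm (0.097, adjusted p = 0.796). The same held for miR-382, whose 5p to 3p ratio was 1.08, 0.918 and 1.02 in HFD libraries, against 0.379, 0.501 and 0.528 in chow libraries, with a 5p arm at -0.066, adjusted p = 0.83. For miR-22 the ratio was 0.02102, 0.0202 and 0.0222 in HFD libraries, against 0.0476, 0.0634 and 0.0223 in chow libraries, and the 5p arm, at 0.15, adjusted p = 0.808, was not called; chow library 3 nearly met the HFD range there.

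**Figure D3:**
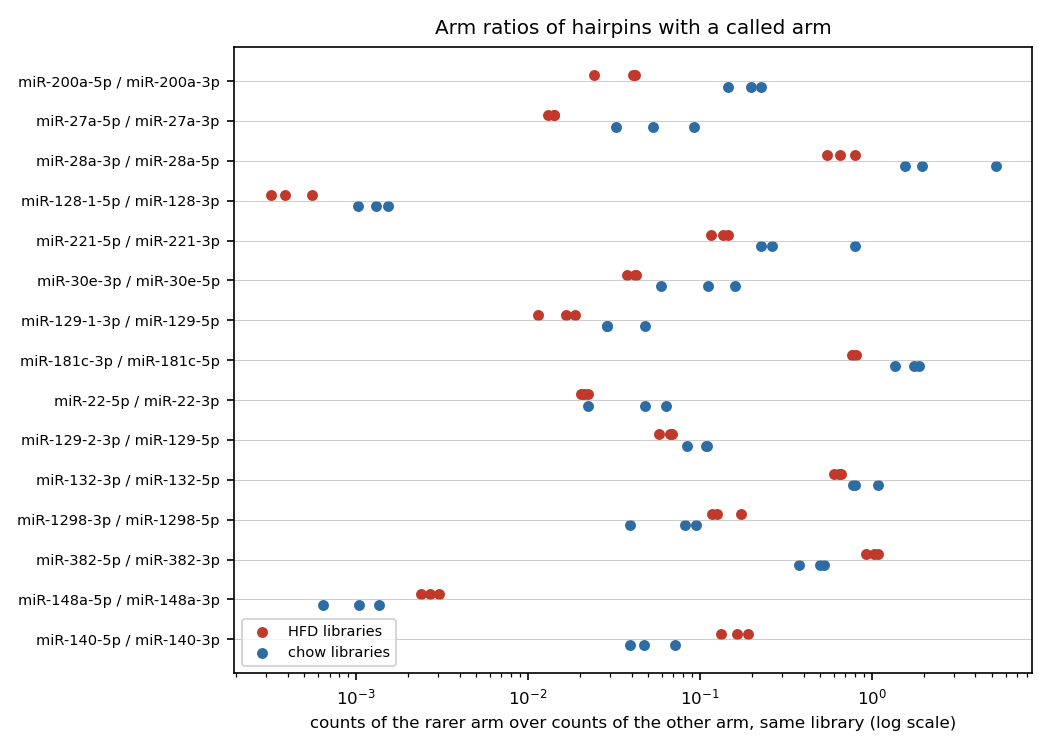
Counts of the rarer arm over counts of the other arm within each library (log scale) for 15 hairpin pairs with a called arm, HFD libraries in red above chow libraries in blue. The pairs shown were chosen from those whose ratios do not overlap between the diets. Of the 38 pairs with a called arm, 23 did not overlap (60.5%), against 65 of all 182 pairs (35.7%). A called arm is part of its ratio, so the higher share is no separate result. The ratios lie lower in HFD for the upper 11 pairs and higher in HFD for the lower 4.

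The Dlk1-Dio3 region on chromosome 12 is an imprinted domain whose maternal allele expresses a large array of miRNAs, many of them brain-rich, from the noncoding transcripts Meg3, Rian and Mirg. Of 102 listed arms in the table, 83 were tested, 5 rose and 2 fell (8.43% called, against 11.8% of all 552), and 34 did not overlap between the diets (41.0%, against 37.3% of all 552). DESeq2 called 11 higher and 3 lower, and with library totals 3 were higher and 0 lower. The median was 0.074, and the summed level was 66303 to 80314 CPM in HFD libraries and 64334 to 79582 CPM in chow libraries, so the array as a whole overlapped. miR-770-5p, from an exon of Meg3 at chr12:109563692-109563785, + strand, had 19.7, 21.7 and 20.04 CPM in HFD libraries 1 to 3, against 4.84, 7.35 and 9.66 CPM in chow libraries 1 to 3 (log2 fold change 1.53, SE 0.28, adjusted p = 0.02). miR-668-3p, from an exon of Mirg at chr12:109734732-109734797, + strand, had 146, 169.9 and 186 CPM in HFD libraries 1 to 3, against 69.3, 85.2 and 79.5 CPM in chow libraries 1 to 3 (log2 fold change 1.10, SE 0.21, adjusted p = 0.0235). In both the lowest HFD library was well above the highest chow library.

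miR-433-3p, at chr12:109591715-109591838, + strand, had 494, 385 and 502 CPM in HFD libraries 1 to 3, against 209, 278 and 206 CPM in chow libraries 1 to 3 (log2 fold change 0.996, SE 0.21, adjusted p = 0.0262). miR-543-3p averaged 315 ± 67.4 CPM in HFD libraries and 147 ± 28.3 CPM in chow libraries (SD, n = 3 each; log2 fold change 1.09, SE 0.25, adjusted p = 0.0285), and miR-1193-3p averaged 5.27 ± 0.318 CPM in HFD libraries and 2.102 ± 0.668 CPM in chow libraries (SD, n = 3 each; log2 fold change 1.41, SE 0.36, adjusted p = 0.0416). The 2 that fell lie on either side of miR-668. miR-382-3p, at chr12:109733771-109733846, + strand, had 276, 313 and 294 CPM in HFD libraries 1 to 3, against 756, 661 and 592 CPM in chow libraries 1 to 3 (log2 fold change -1.19, SE 0.18, adjusted p = 0.00967). miR-496a-3p, at chr12:109739119-109739197, + strand, had 42.5, 45.6 and 36.8 CPM in HFD libraries 1 to 3, against 113, 95.4 and 94.9 CPM in chow libraries 1 to 3 (log2 fold change -1.28, SE 0.21, adjusted p = 0.0152). In both, the HFD libraries were tightly grouped far below the chow libraries. Scaling by library totals ended 4 of the 7 calls, those of miR-382-3p, miR-496a-3p, miR-543-3p and miR-1193-3p (adjusted p 0.0538 to 0.0545). All 7 calls were lost without HFD library 1 (adjusted p 0.0606 to 0.0970) or HFD library 3 (0.0739 to 0.171), 3 without chow library 1 (0.0590 to 0.0811), 2 without chow library 2 (0.0626 to 0.102) and 1, miR-1193-3p, without HFD library 2 (0.0867).

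With entries of the same counts kept once, the median log2 fold change was -0.94 for the red cell list, -0.62 for the muscle list, -0.98 for the epithelial and sensory list and -0.14 for the liver list, against -0.10 for all 534 entries. miR-451a, a red cell miRNA that is matured by Argonaute 2, had 73.6, 115 and 50.8 CPM in HFD libraries 1 to 3, against 246, 198 and 554 CPM in chow libraries 1 to 3 (log2 fold change -2.05, SE 0.46, adjusted p = 0.0285). Chow library 3 was the highest. The 6 red cell entries tested all had a log2 fold change below 0, and miR-451a was the only one called by edgeR (16.7%, against 11.8% of all 552), DESeq2 or limma-voom. They are 4 separate measurements, since miR-486a-3p, miR-486a-5p and miR-486b-3p held nearly the same counts. Their summed level, with the same reads kept once, was 80.2 to 163 CPM in HFD libraries and 248 to 646 CPM in chow libraries, with no overlap, and none was at 0 in all libraries. Most of this sum was miR-451a in every library, so it largely repeats that call. Of the 6 entries, 1 did not overlap between the diets, miR-451a (16.7%, against 37.3% of all 552). Of the leukocyte and microglia list, edgeR called 1 of 12 tested, miR-146a-5p (8.33%, against 11.8% of all 552). DESeq2 called 2 lower, and with same reads kept once the list's median was -0.44. The myeloid miR-223-3p had 0.906, 1.35 and 1.01 CPM in HFD libraries 1 to 3, against 0.8803, 4.899 and 18.7 CPM in chow libraries 1 to 3 (-2.72, adjusted p = 0.0874), highest in the same chow library 3 as miR-451a.

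miR-122-5p, which is nearly specific to hepatocytes, had 3.29, 2.46 and 3.17 CPM in HFD libraries 1 to 3, against 52.4, 8.75 and 17.6 CPM in chow libraries 1 to 3 (log2 fold change -3.15, SE 0.62, adjusted p = 0.0235). Its level was low in every library and highest in chow library 1. The entry miR-122b-3p held identical counts and is the same measurement. The other liver-enriched miRNAs tested, miR-192-5p (-0.14, adjusted p = 0.622) and miR-194-5p (-0.082, adjusted p = 0.815), were not called, and the list's summed level overlapped, at 742 to 878 CPM in HFD libraries and 782 to 1034 CPM in chow libraries. miR-1a-3p, of skeletal and heart muscle, had 196, 331 and 188 CPM in HFD libraries 1 to 3, against 568, 462 and 653 CPM in chow libraries 1 to 3 (log2 fold change -1.23, SE 0.27, adjusted p = 0.0276). The entry miR-1b-5p repeated these counts. The summed level of 10 muscle entries, with same reads kept once, was 212 to 360 CPM in HFD libraries and 490 to 685 CPM in chow libraries, with no overlap. Most of this sum was miR-1a-3p in every library, so it largely repeats that call. Kept once, 1 of the 4 muscle miRNAs tested was lower, against 38 of all 534 entries. Of the others, miR-133a-3p had -1.23, adjusted p = 0.0635, miR-499-5p had -0.023, adjusted p = 0.961, and miR-206-3p had 0.63, adjusted p = 0.421.

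miR-200a-5p, from a cluster that marks epithelial and olfactory cells, had 0.906, 6.19 and 1.802 CPM in HFD libraries 1 to 3, against 16.7, 23.1 and 34.1 CPM in chow libraries 1 to 3 (log2 fold change -3.03, SE 0.65, adjusted p = 0.0268). HFD library 2 stood above the other HFD libraries. All 10 epithelial and sensory miRNAs tested lay below 0, although edgeR called miR-200a-5p alone and DESeq2 and limma-voom called 2 lower each, and 1 of them turned above 0 when libraries were scaled by their totals. Their summed level overlapped, at 158 to 492 CPM in HFD libraries and 402 to 942 CPM in chow libraries. HFD library 2 and chow library 1 were the high ones of their diets, and the sensory miR-182-5p, at 5.105, 67.4 and 6.56 CPM in HFD libraries 1 to 3, against 390.4, 17.1 and 55.1 CPM in chow libraries 1 to 3, accounted for much of chow library 1. miR-205-3p was at 0 in all libraries. The part of such admixed tissue in the results for other miRNAs was not tested.

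Endothelial, oligodendrocyte and ciliated cell lists had a median above 0, at 0.64, 0.11 and 0.82 with same reads kept once. miR-126a-5p, an endothelial miRNA from the Egfl7 locus, rose, with 578, 661 and 608 CPM in HFD libraries 1 to 3, against 437, 309.9 and 239.7 CPM in chow libraries 1 to 3 (log2 fold change 0.90, SE 0.24, adjusted p = 0.0489), and miR-126b-3p repeated its counts. The far more abundant miR-126a-3p had 5206, 4949 and 5136 CPM in HFD libraries 1 to 3, against 3854, 4877 and 4441 CPM in chow libraries 1 to 3 (0.22, adjusted p = 0.419); its HFD libraries too lay above its chow libraries. Smooth muscle and pericyte miRNAs, 0 of 8 called by edgeR, DESeq2 or limma-voom (2 at an unadjusted p under 0.05 by edgeR), had a median of 1.08 but a summed level that was lower in HFD, at 13430 to 15654 CPM in HFD libraries and 16583 to 24803 CPM in chow libraries. Of the 5 above 0, miR-199a and miR-214 were high in HFD library 2 alone, and miR-199a-3p had 30.3, 168 and 31.6 CPM in HFD libraries 1 to 3, against 24.2, 31.5 and 26.1 CPM in chow libraries 1 to 3 (1.49, adjusted p = 0.174). Nearly all of the sum was miR-143-3p, with 14102 ± 992 CPM in HFD libraries and 21518 ± 4595 CPM in chow libraries (SD, n = 3 each; -0.61, adjusted p = 0.105).

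miR-338-3p, which promotes oligodendrocyte differentiation and lies in an intron of Aatk, had 296, 216 and 217 CPM in HFD libraries 1 to 3, against 155, 136 and 112 CPM in chow libraries 1 to 3 (log2 fold change 0.85, SE 0.23, adjusted p = 0.0489). It was the only one that edgeR called of 7 oligodendrocyte miRNAs tested (14.3%, against 11.8% of all 552), and miR-219a-2-3p, another of them, had -0.28, adjusted p = 0.282. The entry miR-3065-5p, on the opposite strand, held identical counts. miR-34b-5p, of ciliated ependymal cells, had 5.68, 6.83 and 6.1998 CPM in HFD libraries 1 to 3, against 1.54, 0.6999 and 1.704 CPM in chow libraries 1 to 3 (log2 fold change 2.35, SE 0.42, adjusted p = 0.0189). The 3 HFD libraries stood well above the chow libraries, which were near their floor. All 5 ciliated cell miRNAs tested lay above 0, with a median of 0.82, and their summed level was 1301 to 1678 CPM in HFD libraries and 467 to 1082 CPM in chow libraries; nearly all of it was miR-34c-5p, with 1352, 1641 and 1269 CPM in HFD libraries 1 to 3, against 1055, 451 and 688 CPM in chow libraries 1 to 3 (0.96, adjusted p = 0.0768). miR-34a-5p, of the same seed as miR-34b-5p but not tied to ciliated cells, had -1.30, adjusted p = 0.067.

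The choroid plexus, which lies against the hippocampus, is marked by miR-204 and by the Htr2c-hosted miRNAs. miR-1298-5p, from an intron of Htr2c at chrX:147064905-147065002, + strand, had 573, 382 and 312 CPM in HFD libraries 1 to 3, against 1652, 954 and 808 CPM in chow libraries 1 to 3 (log2 fold change -1.43, SE 0.33, adjusted p = 0.0305). Its chow libraries lay above all HFD libraries, and chow library 1 was highest. miR-204-5p overlapped, with 767 ± 110.2 CPM in HFD libraries and 764 ± 106 CPM in chow libraries (SD, n = 3 each; 0.0058, adjusted p = 0.988). The other arm, miR-1298-3p, had -0.36, adjusted p = 0.364. miR-1264-5p (0.061, adjusted p = 0.914) and miR-1264-3p (0.14, adjusted p = 0.839) lay above 0. miR-448-3p, also on the list, had 7.74, 5.56 and 3.82 CPM in HFD libraries 1 to 3, against 21.8, 8.75 and 11.4 CPM in chow libraries 1 to 3 (-1.30, adjusted p = 0.082). Its HFD libraries did not overlap its chow libraries. Over the list, edgeR called 1 of 7 tested (14.3%, against 11.8% of all 552) and DESeq2 called 2, all lower. The median was -0.19, with 3 above 0 and 4 below. The summed level was 1100.0 to 1505 CPM in HFD libraries and 1674 to 2433 CPM in chow libraries. Most of it was miR-204-5p and miR-1298-5p, and of these only miR-1298-5p was apart between the diets.

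The calls of these tissue markers also changed with the library left out and with the scaling. Library totals ended those of miR-1298-5p, miR-1a-3p and miR-1b-5p (adjusted p 0.0545 to 0.0745) and of both miR-126 entries, miR-338-3p and miR-3065-5p (0.0886 to 0.101), and keeping same reads once ended those of miR-126a-5p and miR-3065-5p (0.0534). Of the 7 that fell (miR-451a, miR-122-5p, miR-122b-3p, miR-1a-3p, miR-1b-5p, miR-200a-5p and miR-1298-5p), all were lost without HFD library 1 (adjusted p 0.0650 to 0.125) or HFD library 3 (0.0785 to 0.173). Without chow library 1 or chow library 2, 5 were lost (0.0537 to 0.0665, and 0.0548 to 0.0842), and 1 was lost without HFD library 2 (0.106) or chow library 3 (0.0510). Of the 5 that rose (miR-34b-5p, both miR-126 entries, miR-338-3p and miR-3065-5p), all were lost without HFD library 1 (0.0606 to 0.125) or HFD library 3 (0.0739 to 0.123), 4 without HFD library 2 (0.0715 to 0.102) or chow library 2 (0.0840 to 0.0980), and 2 without chow library 1 (0.0587).

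**Figure D4:**
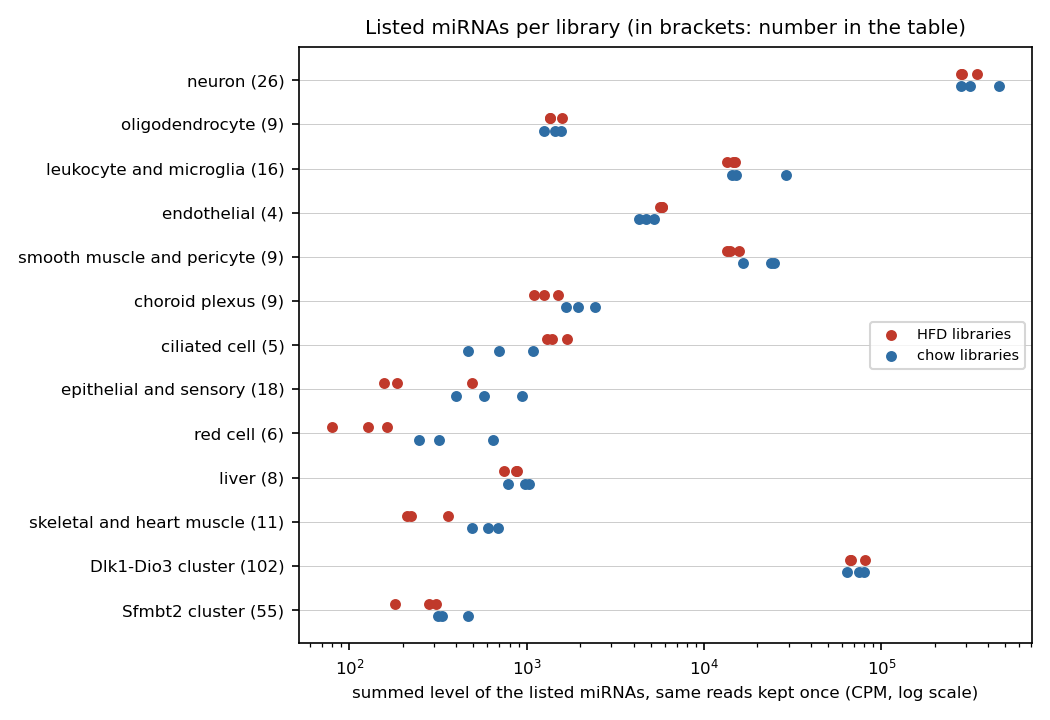
Summed level in CPM (log scale) of the listed miRNAs of a cell type or genomic cluster in each library, HFD libraries in red above chow libraries in blue, with reads that appear under a pair of entries kept once. The red cell, muscle, smooth muscle, choroid plexus and Sfmbt2 sums lie lower in every HFD library, the ciliated cell and endothelial sums lie higher, and the neuron, liver, epithelial and Dlk1-Dio3 sums overlap.

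Some of the steepest falls belonged to entries that do not read as single-locus miRNAs. miR-3470b had 4.199, 4.53 and 2.81 CPM in HFD libraries 1 to 3, against 95.3, 92.2 and 18.2 CPM in chow libraries 1 to 3 (log2 fold change -4.17, SE 0.61, adjusted p = 0.00872). miR-3470a had 1.48, 1.19 and 1.66 CPM in HFD libraries 1 to 3, against 43.4, 52.7 and 13.1 CPM in chow libraries 1 to 3 (log2 fold change -4.67, SE 0.52, adjusted p = 0.00349). Both were near 1 to 5 CPM in every HFD library and spread widely over the chow libraries, with library 3 lowest. The printed sequence of miR-3470b occurs exactly in GENCODE M21 transcripts of 591 genes, and its reverse complement in those of 504 genes. A gene can be in both of these counts. The counts of both strands added had a median of 1 over the 470 tested miRNAs with a sequence. miR-690, annotated in an intron of Fgf12, had 11.9, 6.59 and 17.9 CPM in HFD libraries 1 to 3, against 234, 283 and 53.96 CPM in chow libraries 1 to 3 (log2 fold change -3.98, SE 0.65, adjusted p = 0.0152). The sequence of miR-690 occurs in transcripts of 19 genes, and its reverse complement in those of 1 gene. These were the only 2 of the 470 with matches in more than 10 genes. Whether fragments of those transcripts were counted under these names was not tested. miR-3470b and miR-690 were no longer called without HFD library 1 (adjusted p 0.0606 to 0.0671), and miR-3470a was called whichever library was left out.

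For 3 called entries 1 diet had next to no counts. miR-7046-3p, which was not among the called miRNAs, also had few chow counts, at 2, 1 and 0 in chow libraries 1 to 3. With 14, 17 and 19 counts in HFD libraries 1 to 3, its ratio of HFD over chow was 5.56 (95% interval 1.80 to 27.9, counting error only). miR-467e-5p, of the rodent-specific Sfmbt2 array, had 0 counts in all HFD libraries, against 23, 29 and 21 counts in chow libraries 1 to 3. With 3 counts over the group as the floor, it was at least 72.9-fold lower in HFD, relative to the pooled totals. miR-6481 had 0, 1 and 0 counts in HFD libraries 1 to 3, against 101, 65 and 16 in chow libraries 1 to 3, a ratio of chow over HFD of 545 (95% interval 96.7 to 21660.0, counting error only). miR-7079-3p ran the other way, with 93, 56 and 78 counts in HFD libraries 1 to 3, against 0, 1 and 0 in chow libraries 1 to 3, a ratio of HFD over chow of 75.8 (95% interval 13.5 to 3005, counting error only). Its hairpin is annotated at chr8:123104975-123105043, + strand, within an exon of the ribosomal protein gene Rpl13. The groups did not overlap for any of the 3, and their fitted log2 fold changes are no bound. Whether the columns of both diets were counted against the same entries was not tested. The untested entry miR-466n-5p had the same chow levels as miR-466d-5p, at 1.32, 0.525 and 3.98 CPM in chow libraries 1 to 3. In HFD libraries 1 to 3 miR-466n-5p was at 0, while miR-466d-5p had 0.412, 0.794 and 0.937 CPM.

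Levels within the rest of the Sfmbt2 array varied. Its most abundant entry, miR-467a-5p, whose counts miR-467b-5p repeats, had 140.0, 231 and 208 CPM in HFD libraries 1 to 3, against 237, 239.5 and 358 CPM in chow libraries 1 to 3 (-0.53, adjusted p = 0.231). Of 55 listed arms 24 were tested, 0 rose by edgeR, DESeq2 or limma-voom or at an unadjusted p under 0.05 by edgeR, and 2 fell (miR-467e-5p and miR-466d-3p, -1.66, adjusted p = 0.0412), against 7.43% of all 552. The median was -0.52, and -0.37 with same reads kept once. Also lower were miR-3535 (-1.93, adjusted p = 0.0326) and miR-5121 (-2.09, adjusted p = 0.0374), whose annotated hairpins overlap the snoRNA genes Gm24148, in an exon of Ncl, and Snord33, in an exon of Rpl13a. The remaining calls were miR-27a-5p (-1.10, adjusted p = 0.0285), miR-331-5p (-1.09, adjusted p = 0.0489), miR-1839-3p (-0.90, adjusted p = 0.0326), miR-3068-3p (-0.79, adjusted p = 0.0412) and miR-8120 (-1.75, adjusted p = 0.02), all lower in HFD. All 8 of these were lost without HFD library 1 (adjusted p 0.0671 to 0.164), HFD library 2 (0.0715 to 0.198), HFD library 3 (0.108 to 0.296) or chow library 2 (0.0548 to 0.145), 6 without chow library 1 (0.0537 to 0.113) and 1 without chow library 3 (0.0502). Library totals ended 6 of the 8, all but miR-3535 and miR-8120 (0.0545 to 0.233).

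A last list held 19 miRNAs with known roles in insulin action or lipid metabolism, of which 17 were tested. Of these, miR-22-3p and miR-107-3p rose and miR-335-3p fell, the last not with library totals (17.6% called, against 11.8% of all 552). The median was 0.093, against -0.13 for all 552. miR-33-5p, which represses the cholesterol exporter Abca1, had 16.8, 13.8 and 12.4 CPM in HFD libraries 1 to 3, against 9.02, 7.35 and 4.54 CPM in chow libraries 1 to 3 (0.99, adjusted p = 0.0648); the diets did not overlap, but the test was not passed. miR-27b-3p had 0.28, adjusted p = 0.552.

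**Figure D5:**
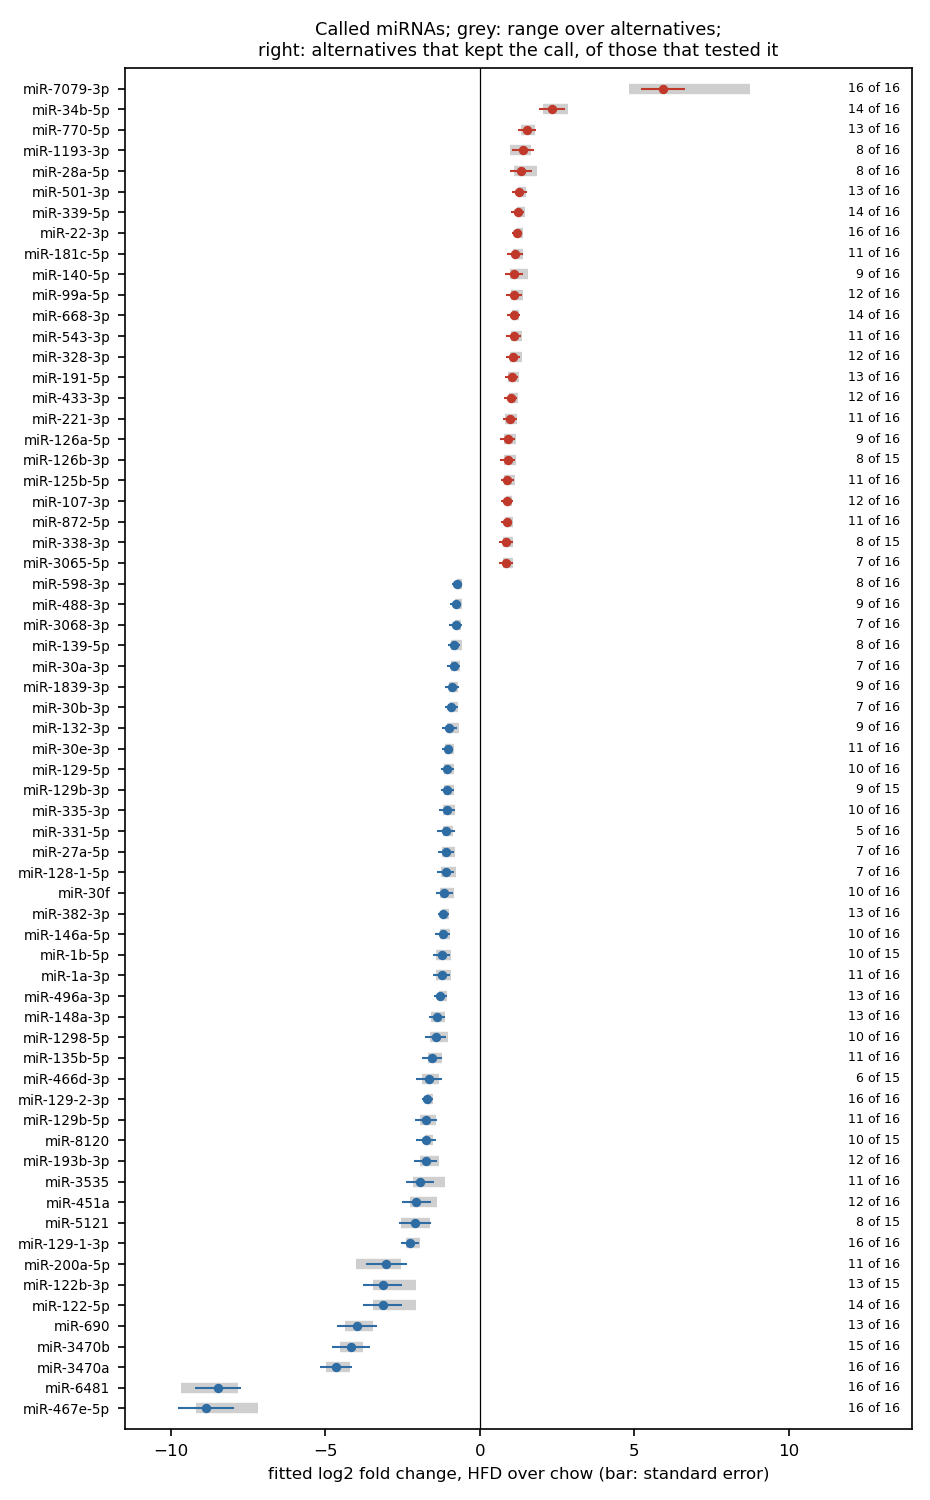
Fitted log2 fold change of HFD over chow with its standard error for the 65 called miRNAs, red where they rose and blue where they fell; grey spans the lowest to the highest value over 16 other analyses, and the numbers at the right count the analyses that kept the call among those that tested the miRNA. No grey span crosses 0, and 7 miRNAs were called in 16 of 16.

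Reads counted under a pair of names weigh on the count of calls. In 19 pairs of entries no library had counts that differed by more than 5%, and of the 10 pairs with both positions in RefSeq all 10 lie on opposite strands of the same position. Of the called miRNAs, 10 formed 5 such pairs (miR-129-5p with miR-129b-3p, miR-126a-5p with miR-126b-3p, miR-338-3p with miR-3065-5p, miR-122-5p with miR-122b-3p, and miR-1a-3p with miR-1b-5p). Counting each pair once leaves 60 calls, 22 higher and 38 lower. A fit on the counts with same reads kept once tested 534 and called 56, 18 higher and 38 lower, without miR-126a-5p, miR-140-5p, miR-28a-5p and miR-3065-5p. The median GC content was 45.5% both for those that rose and for those that fell, against 47.6% for all with a sequence. Of the 21 that rose and had a sequence, 12 began with A and 7 with U, against 6 and 12 of the 29 that fell, and 129 and 199 of all 470.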

How the data were processed

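Small RNA of 6 hippocampus libraries, 3 of HFD and 3 of chow mice, was analysed from the deposited table, which holds raw read counts per mature miRNA with a column for each library, per the file headers. The submitters' processing notes name Bowtie and no version. Build, miRNA annotation, counting tool and the handling of multiply matching reads: not given in the sources used here. Columns headed LFD were taken as chow, since no diet other than HFD and chow is labelled; this is an inference. A further HFD column (1 column of per-sample values) matched no sample and was left unused. Of 1163 entries, 5 were blank in all HFD libraries (at most 3 chow counts each) and left out. The table of extracellular vesicles was not used.

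Counts were filtered with filterByExpr (552 of 1158 entries, 99.99% of counts), scaled with TMM and tested two-sided with edgeR 4.0.16 (glmQLFit, robust, and glmQLFTest) in R 4.3.3, with Benjamini-Hochberg adjustment over all 552. The common biological coefficient of variation was 0.304. The procedure was tested on simulated data. Replicates differed by a chi-square per degree of freedom of 80.4 to 597, beyond the sampling noise of reads, so each library was counted once in n; this does not tell separate mice from repeat libraries of 1 sample. Alternatives were RLE scaling, library totals, no filter, DESeq2 1.42.0, limma-voom (limma 3.58.1), a fit that was not robust, thinned counts, same reads kept once, miR-9 left out, a replicate block, and each library left out. Intervals (95%, exact) and floors (3 counts) reflect counting error alone, because without molecular identifiers reads are not independent molecules.

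The members, the lists and the groups of the text were chosen with earlier results of these data known. Named miRNAs are every called one, the most abundant 5, up to 3 abundant members of each list, and the other arms and same-seed relatives of the 12 largest rises and 12 largest falls. Same-seed relatives and other arms of the remaining called miRNAs, and miR-124-3p, miR-33-5p, miR-223-3p, miR-486b-3p, miR-133a-3p, miR-1264-5p, miR-1264-3p, miR-466d-5p and miR-466n-5p, lie outside that rule and were chosen after seeing their values. The same holds for miR-448-3p, miR-206-3p, miR-30d-3p, miR-30c-2-3p, miR-30c-1-3p and miR-7046-3p. The lists were neuron, neuronal activity, oligodendrocyte, choroid plexus, ciliated cell, epithelial and sensory, leukocyte and microglia, red cell, liver, endothelial, smooth muscle and pericyte, muscle, the Dlk1-Dio3 and Sfmbt2 clusters, let-7, miR-99 with miR-100 and miR-125, miR-181, miR-30, miR-29, and insulin and lipid metabolism. Hairpin positions and mature sequences are those of RefSeq on GRCm38.p6, host genes and transcripts those of GENCODE M21. Figures were drawn with matplotlib 3.10.9 in Python 3.11.15.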

Additional observations from a re-analysis of the deposited data

How the results depend on the processing

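The 65 called miRNAs kept their direction in all 16 alternatives that tested them. The number called moved to 33 with library totals (16 lower), and to 109 with DESeq2 (47 higher and 62 lower). Without the filter on low counts 38 were higher. Over the fits that left out 1 library, the number called ran from 8 to 123, with 2 to 50 higher and 5 to 73 lower. Apart from the replicate block, no other alternative moved these counts by over 1.5 times. The cause of these shifts was not tested.

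The deviations of same-numbered libraries correlated at 0.0702, -0.353 and 0.0905, and those of differently numbered libraries at -0.263 to 0.311. With 3 libraries a diet, these values cannot settle whether the replicate numbers pair the samples. With the replicate block 35 were called, 9 higher and 26 lower, of which 34 were among the 65.

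Of 45 named miRNAs that were not called and were followed over the alternatives, these crossed 0. Library totals gave 0.058 for miR-103-3p, 0.070 for miR-194-5p, 0.095 for miR-218-5p and 0.095 for the 5p arm of miR-382. Without the filter the values were 0.039, 0.097, 0.14 and 0.11 for the same, and 0.031 for miR-192-5p. RLE scaling gave 0.052 for miR-218-5p and 0.017 for the 5p arm of miR-382, as DESeq2 did (0.052 and 0.017), limma-voom gave 0.0011 for miR-218-5p, and same reads kept once gave -0.0066 for miR-204-5p. Over the fits without 1 library, values on both sides of 0 were found for miR-103-3p (-0.25 to 0.18), miR-127-3p (-0.14 to 0.25), miR-146b-5p (-0.57 to 0.052), miR-192-5p (-0.20 to 0.022), miR-194-5p (-0.054 to 0.064), miR-204-5p (-0.061 to 0.24), miR-218-5p (-0.12 to 0.32), miR-22-5p (-0.10 to 0.55), miR-221-5p (-1.16 to 0.20), miR-382-5p (-0.099 to 0.080), miR-9-5p (-0.53 to 0.071) and its repeat entry miR-9b-3p (-0.53 to 0.071). The depth of chow library 3 limits what can be said of miRNAs under about 1.70 CPM.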
